A study of Phalaenopsis aphrodite subsp. formosana with 4 samples.

Results

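miR169 is a conserved plant microRNA family, and its members here are all unique small RNA sequences of Phalaenopsis aphrodite subsp. formosana whose best match among known miRNAs has the name miR169 with any letter. There were 144 such sequences with 4693 reads, out of 11129 miRNA-matched sequences, and each of the 10 with at least 20 reads over the libraries is described. The family was selected on its high share of reads in flower buds, so its level in that library, and every ratio with it, is a description and not a finding. All plants were strain M1624 and grew for 7 to 8 months at a constant 28°C before they were divided. Untreated leaves (NL) are from plants that were then kept warm, at 32°C by light and 27°C by dark. Flower buds (FB), stalks (S) and low temperature-treated leaves (CL) are from plants of the cool treatment, at 24°C by light and 18°C by dark. That treatment is stated to last 2 months, and the temperature from then until the harvest of flower buds is not stated. Leaves were taken from month 0, the start of the treatment, to month 2. Stalks were taken at months 1.5 and 2 and flower buds at month 3.5, so organ and time of harvest cannot be told apart. How many plants went into a library is not stated in the sources used here.

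In plants, miR169 guides the cleavage of NF-YA transcripts. NF-YA is the subunit of the trimeric factor NF-Y that reads the CCAAT box of promoters, together with NF-YB and NF-YC. In Arabidopsis the family is known for its response to nitrogen shortage and drought, and in petunia and snapdragon a miR169 gene keeps the genes of stamen and carpel identity within the inner whorls of the flower. The first base of a small RNA is known in Arabidopsis to steer the ARGONAUTE protein that takes it up. Most plant miRNAs pair with their targets perfectly or almost so. Bases 2 to 8, called the seed, are marked here only to compare 5′ ends, and pairing with targets was not examined.

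The 10 sequences are shown because some forms that differ only at their ends, such as forms 1 and 2, had different orders of libraries. They are written 5′ to 3′ as DNA, numbered by reads over the 4 libraries, with the seed in capitals. Forms 1, 2, 4, 5, 6 and 8 share 1 seed and held 4156 reads:
form 1: cAGCCAAGgatgacttgccga
form 2: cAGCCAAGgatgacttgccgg
form 4: cAGCCAAGgatgacttgccg
form 5: tAGCCAAGgatgacttgcct
form 6: cAGCCAAGgatgacttgccgt
form 8: cAGCCAAGgatgacttgcc
Forms 3, 7, 9 and 10 start 1 base later, which shifts their seed by 1 base, and held 223 reads:
form 3: aGCCAAGGatgacttgccga
form 7: aGCCAAGGatgacttgccggc
form 9: aGCCAAGGatgacttgccgacc
form 10: aGCCAAGGatgacttgccgg
Forms 1 and 2 are identical to Arabidopsis miR169a and miR169b and differ by A21G (form 1 first, positions counted from 1 at the 5′ end). Form 5 lacks the last base of Arabidopsis miR169h, which starts with another base than miR169a and miR169b. The other 134 sequences had 314 reads together, and 90 of the 144 were read 1 time. Just above the limit of 20 lay forms 9 and 10 with 21 reads each, and just below it 2 sequences with 17 reads each. Position in the genome, gene structure and precursors of miR169 were not analysed here, since no genome was used.

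miR169 was read 147 times in untreated leaves, 146 times in treated leaves, 339 times in stalks and 4061 times in flower buds. Per 1000000 clean reads (RPM) these are levels of 20.4, 19.7, 42.3 and 643. The libraries held 226523, 404345, 106142 and 265352 miRNA-matched reads, of which miR169 took 0.0649%, 0.0361%, 0.319% and 1.53%. By reads it was the family of rank 19 of 236 in NL and 21 of 223 in CL, and of rank 11 of 239 in S and 10 of 243 in FB. Each condition has 1 library, so differences have no check by replicates and were not tested, and every ratio compares libraries rather than conditions. Intervals in brackets are 95% intervals of the counting error alone, which treat PCR copies as separate molecules. In these libraries of whole organs, fewer cells of a type and less RNA per cell cannot be told apart. The tables hold miRNA-matched sequences only, so the organs could not be checked against marker transcripts.

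**Figure D1:**
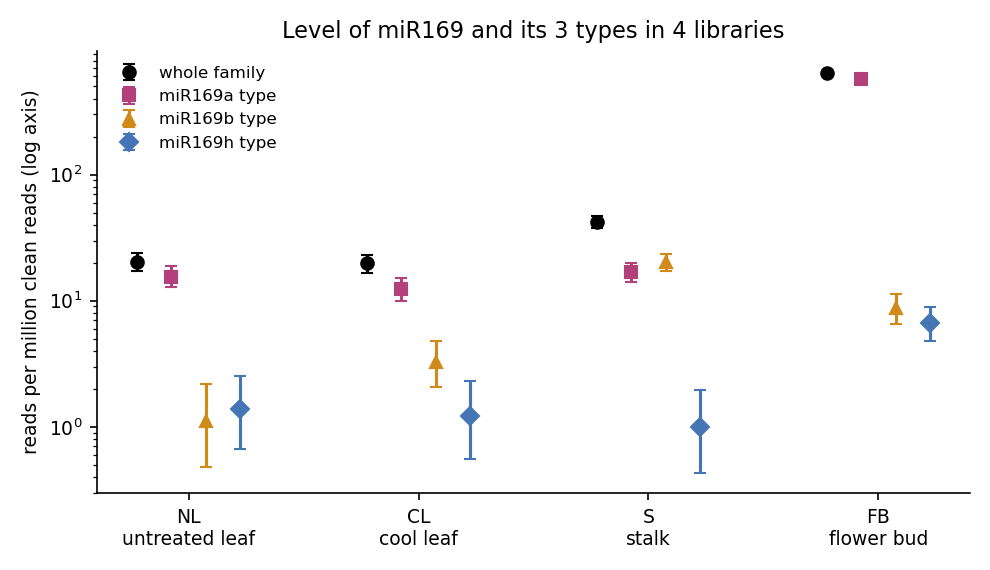
Level of the miR169 family and of its miR169a, miR169b and miR169h types in RPM on a log axis, in NL, CL, S and FB, with exact Poisson 95% intervals of the counts (1 library each). The whole family and the miR169a type stand far higher in FB than in the other libraries, at 643 and 574 RPM, while the miR169b type is highest in S at 20.2 RPM.

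The leaf libraries had nearly the same level of the family, at 0.967 (0.764 to 1.22) for CL over NL. A ratio above 1.5 or below 0.667 was called higher or lower for families with at least 100 reads over both libraries, and 44% of 25 families were called higher and 4% lower in this comparison. Relative to all matched reads the miR169 ratio was 0.556, below the limit of 0.667, so the near equality of the leaf libraries depends on the denominator. Stalks exceeded treated leaves with a ratio of 2.14 (1.76 to 2.62), in a comparison in which 12% of 25 families were called higher and 72% lower, and the median family stood at 0.472. The family had the next to largest ratio there, after miR172, the regulator of AP2-like genes in flowering, at 2.94. Relative to all matched reads the miR169 ratio of S to CL was 8.85, with 16 families called higher and 5 lower. Flower buds exceeded treated leaves with a ratio of 32.6 (27.6 to 38.7), the contrast for which the family was picked, beside 32.1% of 28 families called higher, 21.4% called lower and a median of 0.939. The comparisons of stalks and of flower buds with treated leaves share the CL library. Flower buds exceeded stalks with a ratio of 15.2 (13.6 to 17.0), where 65.4% of 26 families were called higher and 3.85% lower. In that comparison miR397, which acts on laccases, at 16.5 and miR528, which acts on copper proteins, at 15.2 stood on a par with miR169. Relative to all matched reads the miR169 ratio of FB to S was 4.79, with 9 families called higher and 11 lower. The size of the ratios with S, and the background calls beside them, thus depend on the denominator.

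**Figure D2:**
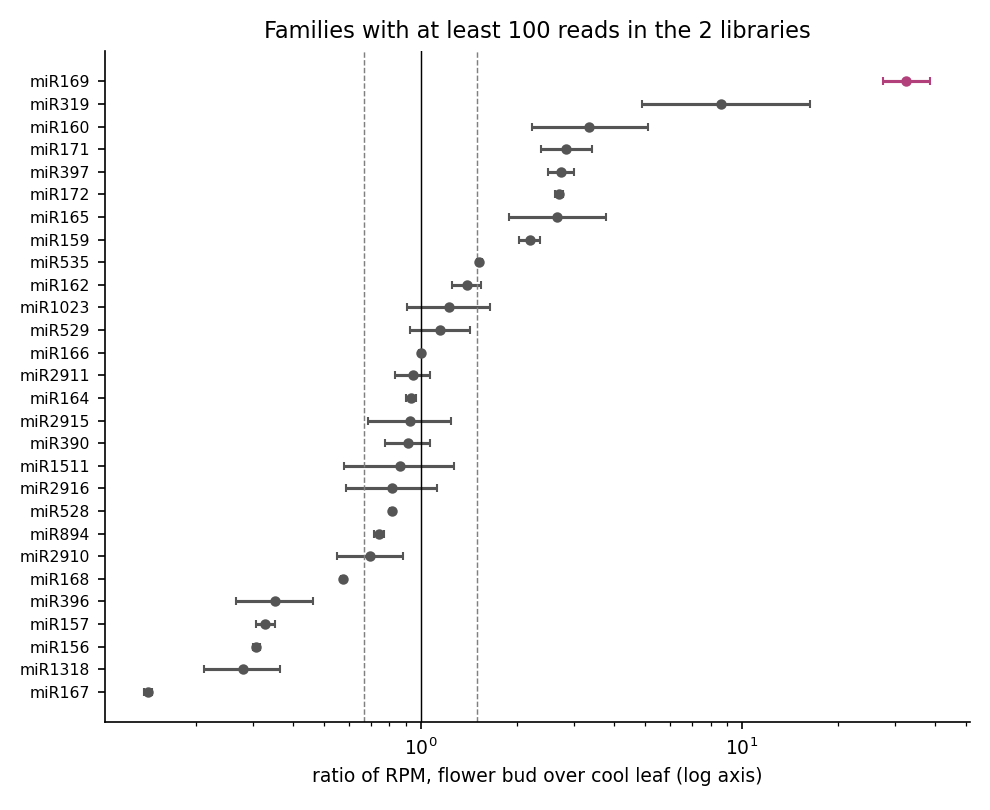
Ratio of RPM in flower buds to treated leaves on a log axis for the 28 families with at least 100 reads over both libraries, with exact conditional binomial 95% intervals. The solid line marks 1 and the dashed lines the limits of 1.5 and 0.667. miR169, in colour, lies at 32.6, and the next family, miR319, at 8.62.

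Form 1, the miR169a sequence, carried the high level in flower buds. It was read 108 times in untreated leaves, 88 times in treated leaves, 127 times in stalks and 3445 times in flower buds, or at 15.0, 11.9, 15.8 and 545 RPM. The leaf and stalk libraries thus lay close together, and FB stood apart. The ratio of FB to CL was 45.9 (37.1 to 57.3) and that of FB to S 34.4 (28.8 to 41.4), whereas S to CL was 1.33 (1.01 to 1.77) and CL to NL 0.793 (0.592 to 1.06). These ratios depend on the denominator, and relative to all matched reads they were 59.7 for FB to CL, 10.9 for FB to S, 5.50 for S to CL and 0.456 for CL to NL. On that basis form 1 was thus higher in stalks than in treated leaves, and lower in treated than in untreated leaves, by the limits above. Form 1 held 84.8% (83.7 to 85.9) of miR169 reads in FB, 73.5% (65.8 to 79.9) in NL, 60.3% (52.2 to 67.8) in CL and 37.5% (32.5 to 42.7) in S.

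Form 2, the miR169b sequence, had another order of libraries, with its highest level in stalks. It was read 7 times in untreated leaves, 19 times in treated leaves, 121 times in stalks and 42 times in flower buds, which are levels of 0.972, 2.57, 15.1 and 6.65 RPM. By these counts stalks stood highest, flower buds next and both leaf libraries lowest. In FB the 42 reads lie beside 34 of another change of form 1 at base 21, A21T. The place of FB above the leaf libraries is therefore uncertain. The ratio of S to CL was 5.88 (3.61 to 10.1), that of FB to S 0.440 (0.302 to 0.630) and that of FB to CL 2.59 (1.47 to 4.71). Between the leaf libraries the ratio of CL to NL was 2.64 (1.06 to 7.44), from 19 and 7 reads. Relative to all matched reads form 2 was at 24.3 for S to CL, 0.139 for FB to S, 3.37 for FB to CL and 1.52 for CL to NL. The change of denominator multiplies every ratio of S to CL here by 4.13, of FB to S by 0.315, of FB to CL by 1.30 and of CL to NL by 0.576, whatever the sequence.

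The balance of these forms was therefore read within each library, where it does not depend on the denominator. Of the reads of forms 1 and 2 together, form 2 made up 48.8% (42.6 to 55.0) in S, 17.8% (11.7 to 26.1) in CL, 6.09% (2.98 to 12.03) in NL and 1.20% (0.892 to 1.62) in FB. The interval of stalks overlapped with none of the others, nor did that of flower buds, while the intervals of NL and CL overlapped in part. The high level in FB for which the family was picked is mostly form 1, so the low share of form 2 there is a description, while the division between the forms in S, CL and NL did not enter the choice.

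Sequences with the same ends were also counted together with forms 1 and 2. Sequences that hold bases 2 to 21 of form 1 are called the miR169a type (15 sequences, 3967 reads). Those that hold bases 2 to 21 of form 2 are the miR169b type (7 sequences, 249 reads). Form 1 itself held 3768 of the miR169a-type reads and form 2 held 189 of the miR169b-type reads. The shares by type therefore largely repeat those of both forms. The miR169a type had 112, 91, 135 and 3629 reads in NL, CL, S and FB, and the miR169b type had 8, 24, 162 and 55. By all sequences of both types the miR169b share was 54.5% (48.9 to 60.1) in S, 20.9% (14.4 to 29.2) in CL, 6.67% (3.42 to 12.6) in NL and 1.49% (1.15 to 1.94) in FB, and on this basis the intervals of NL and CL were apart. In stalks the miR169b type thus had more reads than the miR169a type, and in flower buds far fewer. Its level in S was 6.23 (4.04 to 10.01) times that in CL, against 1.37 (1.04 to 1.81) for the miR169a type.

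**Figure D3:**
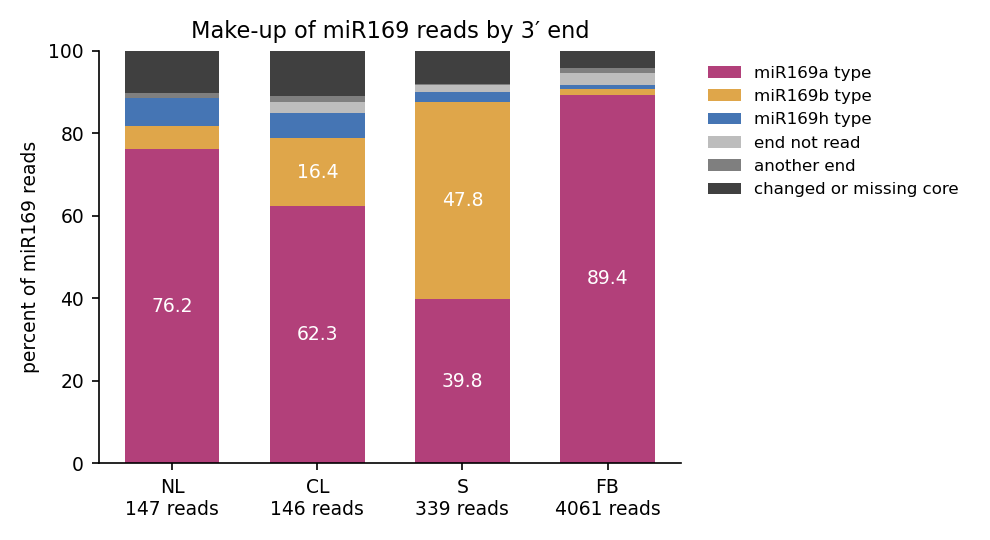
Percent of miR169 reads in each library that belong to the miR169a type, the miR169b type, the miR169h type, sequences that stop before the base that tells types apart, sequences with another end, and sequences with a changed or missing core. The miR169a type makes up 89.4% of reads in FB and 39.8% in S, where the miR169b type makes up 47.8%.

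Forms that start 1 base later, already counted within the miR169a and miR169b types, were divided likewise. Each reached 20 reads mainly through the library in which it was highest. Form 3, the miR169a sequence without its first base, had 3, 3, 5 and 135 reads in NL, CL, S and FB, and form 9, which runs 2 bases further at the 3′ end, had 0, 0, 1 and 20. Both were read mostly in flower buds. Form 10, the miR169b sequence without its first base, had 0, 1, 15 and 5 reads, and form 7, which runs 1 base further, had 1, 4, 24 and 6. The best match of form 7 was bna-miR169g, with 1 mismatch and 1 gap, while form 10 matched ath-miR169b. Both had the most reads in stalks, at 1.87 RPM for form 10 and 2.99 RPM for form 7. The ratio of FB to S was 34.3 (14.3 to 107) for form 3, but 0.423 (0.120 to 1.22) for form 10 and 0.317 (0.106 to 0.797) for form 7, and the interval of form 10 reaches past 1.

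The late start was more frequent in the miR169b type than in the miR169a type. In stalks 24.7% (18.7 to 31.9) of 162 miR169b-type reads started at base 2, against 5.19% (2.53 to 10.3) of 135 miR169a-type reads. In flower buds the shares were 21.8% (12.9 to 34.4) of 55 and 4.44% (3.81 to 5.16) of 3629. Form 7, whose best match was not miR169b, held 24 of the 40 late-start miR169b-type reads in S and 6 of 12 in FB. The intervals of both types were apart in each of these libraries, and within a type the shares of S and FB had overlapping intervals. In treated leaves 5 of 24 miR169b-type reads and 3 of 91 miR169a-type reads started there, and in untreated leaves 1 of 8 and 3 of 112, too few in leaves for a closer reading. The late-start forms 3, 7, 9 and 10 begin with A, and forms 1 and 2 with C.

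**Figure D4:**
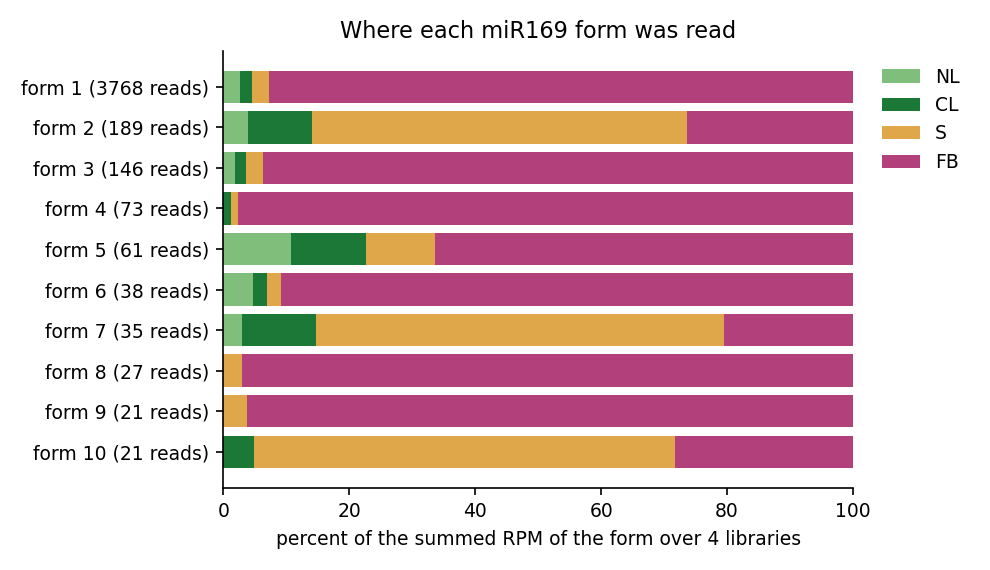
Each bar is 1 of the 10 miR169 forms with at least 20 reads, divided by the percent of its summed RPM that came from NL, CL, S and FB. Forms 2, 7 and 10 have 59.7% to 66.9% of their level in S, and the other forms 66.3% to 97.7% in FB.

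The remaining forms of the family were shorter or ended differently. Form 4, which lacks the last base of form 1, had 0, 1, 1 and 71 reads in NL, CL, S and FB, and form 8, which lacks the last 2 bases, had 0, 0, 1 and 26. With no read of form 8 in CL, the 95% interval of its ratio of FB to CL starts at 7.68. Among reads that follow form 1 from its first base, those that stop early made up 3.06% (2.54 to 3.68) in FB, 3.76% (1.62 to 8.50) in S and 3.30% (1.13 to 9.25) in CL, and none of 108 reads in NL, where the interval ends at 3.43%. The share of shortened reads was thus not distinguishable between libraries at this depth, although the libraries differ in level. Form 6, which differs from form 1 by A21T, had 2, 1, 1 and 34 reads.

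Form 5, the miR169h form, was spread more evenly. It had 7, 8, 8 and 38 reads in NL, CL, S and FB, at levels of 0.972, 1.08, 0.998 and 6.02 RPM, so the leaf and stalk libraries hardly differed and FB was the highest. The ratio of FB to CL was 5.56 (2.56 to 13.8), against 45.9 for form 1, and that of S to CL 0.923 (0.302 to 2.82). The full 21 nt miR169h sequence had 5 reads over all libraries.

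Calls for single forms used the same limits and at least 20 reads over both libraries, and they count little here. Forms 3, 4, 5, 6, 8 and 9 had at most 8 reads in any library but FB, so they reached that minimum through FB alone, and their direction was fixed by it. These 6 were called higher in FB than in CL and S, as was form 1. Form 2 was called higher in FB than in CL and lower than in S. Over all families 27.1% of 501 sequences were called higher and 34.9% lower for FB to CL, the contrast behind the choice of the family, and nothing is read from the forms' count there. For FB to S 71.1% of 377 sequences were called higher, and 7.96% lower. The forms called lower there were forms 2, 7 and 10, all of the miR169b type, of which form 7 reached the minimum through S alone. Form 10 lay exactly at the minimum of 20, with 15 reads in S and 5 in FB, and its interval reaches past 1. Between S and CL 3 forms had enough reads, of which forms 2 and 7 were called higher, form 7 again with most of its reads in S, beside 9.56% of 429 sequences (74.8% were called lower), and form 1 lay between the limits. Between CL and NL 2 forms had enough reads, of which form 2 was called higher, beside 44.3% of 497 sequences (10.7% were called lower), and form 1 lay between the limits.

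Reads that differ from form 1 at 1 base show how far a rare form can be told from scattered changes. Of 63 possible changes 45 were seen. At bases 1 to 20 these reads numbered 144 in FB, or 4.18 per 100 reads of form 1, and 9 in S, 5 in CL and 7 in NL. The most frequent of them, C4T, had 16 reads in FB. For 9 other families whose main sequence had at least 1000 reads in FB, the same measure, taken at all bases but the last, ran from 1.06 to 16.3 per 100 with a median of 4.50. At base 21 in FB, A21G had 42 reads, A21T 34 and A21C 6. The miR169b sequence therefore stood only a little above A21T in flower buds. In stalks A21G had 121 reads, A21T 1 and A21C 0, and the most frequent change at any other base had 2 reads. The miR169b sequence thus stood clear of single changes in stalks, and in treated leaves too, with 19 reads against 1 of A21T.

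**Figure D5:**
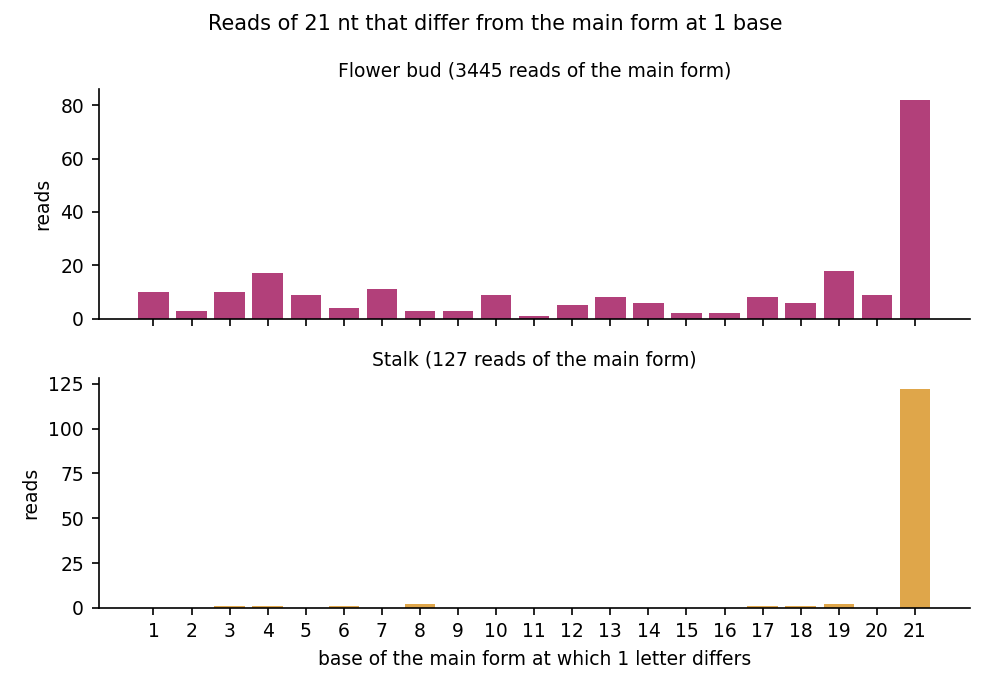
Reads of 21 nt that differ from form 1 at 1 base, by base from the 5′ end, in flower buds (3445 reads of form 1) and stalks (127 reads). Base 21 holds 82 reads in FB and 122 in S, and no other base holds more than 18 in FB or 2 in S.

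Sequences of 21 nt held 91.3% (90.4 to 92.1) of miR169 reads in FB, 85.8% (81.7 to 89.2) in S, 82.9% (75.9 to 88.1) in CL and 88.4% (82.3 to 92.7) in NL. These shares were higher than over all other families, which had 83.7%, 80.5%, 75.4% and 67.0%. Perfect matches to a known miRNA made up 85.9% of miR169 reads in FB, 73.2% in S, 74.0% in CL and 80.3% in NL. Of the reads, 94.9% held the core of bases 2 to 19 of form 1 unchanged. The best matches carried 20 names, of which 15 had fewer than 10 reads, and 29 sequences with 35 reads had 4 or 5 mismatches and gaps, so their place in the family is less certain. The opposite arm of the precursor was matched by 1 read, in FB. Flower buds had 108 unique miR169 sequences, against 42 in S, 28 in CL and 20 in NL, but at an equal number of 146 reads the exact expectation was 14.6 in FB, 22.1 in S, 28 in CL and 19.9 in NL. The greater number of variants in FB thus came with its greater number of reads.

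Families with a profile near that of miR169 were sought among 35 other families with at least 100 reads. Each family's RPM was scaled to 100% over the 4 libraries, and the distance is the part of that total that would have to move to make the profiles equal. miR169 had 88.6% in FB, 5.83% in S, 2.72% in CL and 2.81% in NL. Nearest was miR160, a regulator of auxin response factors, at a distance of 23.9 points and with 65.6% in FB. miR319, a regulator of TCP genes, followed at 30.4 points with 59.1% in FB and 32.1% in S, and then miR397, at 32.1 points with 58.8% in FB. In NL, CL, S and FB, miR160 had only 16, 33, 9 and 94 reads and miR319 only 4, 14, 71 and 103. Their distances are therefore less certain, and no interval was computed for them. The median distance was 57.6 points and the median share of FB 31.0%. By RPM these 3 were the only other families with over 50% of their level in FB. Since miR169 was picked for its share in FB, the distances largely repeat that choice and are a description. The profiles also depend on the denominator and were not computed relative to all matched reads, where every ratio of FB to S is multiplied by 0.315.

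Other families of flower development are given for comparison, from a list of 17: miR156, miR157, miR159, miR160, miR164, miR165, miR166, miR167, miR171, miR172, miR319, miR390, miR393, miR394, miR396, miR529 and miR535. Of these, 15 had enough reads over FB and CL, with 7 called higher and 4 lower, beside 32.1% and 21.4% over all families, and a median ratio of 1.15 beside 0.939, from 0.142 for miR167, a regulator of auxin response factors, to 8.62 for miR319. For S to CL 13 had enough reads, with 2 called higher and 9 lower, beside 12% and 72%, and a median of 0.364 beside 0.472. For FB to S 14 had enough reads, with 11 called higher and none lower, beside 65.4% and 3.85%, and a median of 2.82 beside 2.66. Counts of the listed miR159 and miR396 cover the analysed sequences only. For each of them the study lists a sequence at a higher level in CL, S and FB than the whole family has here. Their ratios may therefore miss reads. Of 7 listed families of nutrient supply, 2 had enough reads over FB and CL, miR397 at 2.74 and miR528 at 0.812. miR395 and miR399 are known in Arabidopsis for sulfate and phosphate shortage. In NL, CL, S and FB, miR395 had 4, 5, 4 and 2 reads and miR399 had 46, 37, 33 and 17. The other listed families were miR398 with 2, 2, 5 and 4 reads, miR408 with 5, 11, 0 and 22, and miR827 with 1, 0, 0 and 1.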

How the data were processed

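The authors cut small RNA of 20 to 25 nt from a gel, sequenced 1 library per condition on an Illumina instrument, removed adaptors, contaminants, low quality reads and inserts below 18 nt, collapsed identical reads and aligned the unique sequences by BLAST to miRBase 15. The deposited values are raw counts of reads per unique sequence, with other columns for length, best match, mismatches and gaps, and an alignment score deposited by the authors that was not used. In the files the column described as matched length holds the length of the read sequence. No source used here names the BLAST version.

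Counts were summed by the number after miR in the best match (Python 3.11.15, pandas 2.3.3, scipy 1.17.1) and divided by the clean reads stated by the study (RPM). Ratios have exact conditional binomial 95% intervals, also where a library had 0 reads, and shares have Wilson 95% intervals. No test between conditions was made. Families with at least 100 reads, or sequences with at least 20, over both libraries were called at a ratio of 1.5. The interval and the calls were run on simulated Poisson counts with known ratios, for families of FB and CL with at least 100 reads. Such counts hold no spread from PCR or between samples, so they check the computation only. Sequences named are those with at least 20 reads over the 4 libraries, and the families the 3 nearest in profile and examples from 2 lists. Members and lists were chosen with earlier results of these data known. Alternatives changed the denominator, the sequences used, the family rule and the limits.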

Additional observations from a re-analysis of the deposited data

How the results depend on the processing

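Under every alternative run, the family ratio stayed above 1.5 for S to CL, FB to CL and FB to S. For CL to NL it lay between the limits except relative to all matched reads, where it fell below 0.667. Relative to all matched reads the ratios were 0.556 for CL to NL, 8.85 for S to CL, 42.4 for FB to CL and 4.79 for FB to S, and with miR528 left out of the matched reads 0.740, 5.78, 44.1 and 7.63. Scaled by the median ratio of sequences with at least 100 reads in each library, they were 4.32 for S to CL and 6.48 for FB to S, while high quality reads gave 13.1 for FB to S. Without form 1 the ratios were 1.45, 3.37, 12.4 and 3.69 in the same order, so 1 sequence carries much of the level in FB. Perfect matches gave 17.8 and at most 1 mismatch or gap 17.1 for FB to S. Among perfect matches form 1 held 98.8% in FB, 51.2% in S, 81.5% in CL and 91.5% in NL. With sequences of at least 2 reads it held 86.0% in FB, and perfect matches held 87.1% there. Relative to all matched reads, 2 families were called higher and 9 lower for CL to NL, 16 and 5 for S to CL, and 9 and 11 for FB to S. With a limit of 20 reads, 3 were called lower for CL to NL, 5 higher for S to CL, 16 higher for FB to CL, and 26 higher and 3 lower for FB to S, and with a ratio limit of 2, 3 were called higher for CL to NL. The other 49 values moved less than their interval, or by at most 1.5 times for counts of families. For single forms the matched-read denominator, an alternative chosen after the values were seen, moved 10 ratios out of their intervals and left 11 within. It turned no called ratio around, but form 1, between the limits for CL to NL and S to CL, became lower at 0.456 and higher at 5.50. The largest other moves were in ratios with S, such as 24.3 for S to CL and 0.139 for FB to S of form 2.

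With 1 library per condition no library can be left out. No paired analysis was possible because each condition has 1 library. The number of reads limits the leaf libraries most, where form 2 rests on 7 and 19 reads and the forms from 3 on have at most 8 each.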
